A study of Mus musculus with 2 samples.

Results

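The precursors described here are 10 microRNA (miRNA) hairpins grouped as epithelial, out of 1187 precursors counted in mouse hindlimb muscle. They were chosen by name: the cluster of miR-200b, miR-200a and miR-429, the pair miR-200c and miR-141, the cluster of miR-183, miR-96 and miR-182, and the keratinocyte miRNAs miR-203 and miR-205. All 10 were listed with counts in both libraries. The data are 2 small RNA libraries, both from ischemic hindlimb muscle taken 1 day after surgical removal of the femoral artery. The hypercholesterolemic library (HC) came from ApoE-/- mice, which lack apolipoprotein E, a ligand for the clearance of lipoproteins from blood, and which received a high fat diet by the series' design text. The normocholesterolemic control library (NC) came from C57Bl/6 mice with the control genotype. Age, sex, the number of mice pooled, the strain background of the ApoE-/- mice and the diet of the controls do not appear in the labels used here, so genotype, diet and any strain difference cannot be told apart. The design sets hypercholesterolemic against healthy mice to find miRNAs whose expression differs. With 1 library per group, no spread between animals could be estimated and no test was run. The 95% intervals below cover only counting error, and even that only nominally, since PCR copies without molecular identifiers were counted as separate reads.

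The miRNAs of the miR-200 family are a hallmark of epithelial cells, in which they repress the transcription factors Zeb1 and Zeb2 and so sustain E-cadherin. Zeb proteins in turn bind E-box elements upstream of the miR-200 genes and repress them. miR-203 is abundant in differentiating keratinocytes, where it represses p63, and miR-205 marks basal and progenitor cells of stratified epithelium such as epidermis. The miR-183, miR-96 and miR-182 cluster is best known from sensory cells of the eye and inner ear and from sensory neurons. miR-182 also occurs in other cells, activated lymphocytes and muscle among them, and represses Foxo transcription factors. None of the 10 belongs to the muscle-specific group of miR-1, miR-133 and miR-206.

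A miRNA recognises its targets mainly through its seed, bases 2 to 8 of the mature strand. The mature strand usually most abundant for each member is shown from RefSeq (GRCm38.p6), 5′ to 3′ with the seed in capitals, because the seeds divide the members. All 10 matched a RefSeq hairpin at the deposited coordinates. The miR-200 family falls into a group of 3 members with one seed and a group of 2 with another:
miR-200b-3p: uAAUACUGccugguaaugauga
miR-200c-3p: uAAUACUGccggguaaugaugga
miR-429-3p: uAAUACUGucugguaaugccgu
miR-200a-3p: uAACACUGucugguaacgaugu
miR-141-3p: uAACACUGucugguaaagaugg
The other 5 members each have a seed of their own:
miR-183-5p: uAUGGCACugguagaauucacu
miR-96-5p: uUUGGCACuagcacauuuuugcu
miR-182-5p: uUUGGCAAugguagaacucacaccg
miR-203-3p: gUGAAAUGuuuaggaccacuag
miR-205-5p: uCCUUCAUuccaccggagucug

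The seeds of the miR-200 groups differ at 1 of their bases, and their 7-base matches in DNA letters are CAGTATT for miR-200b, miR-200c and miR-429 and CAGTGTT for miR-200a and miR-141. Over the first 22 bases, miR-200b differed from miR-200c at 2 positions, as did miR-200a from miR-141, while miR-200a and miR-429, which share a transcript, differed at 4. The number of mismatches allowed in alignment is not stated in the labels, so whether reads of such near-identical strands were exchanged between precursors was not tested. The seeds of miR-96 and miR-182 also differ at 1 base. In the deposited counts the arms of a hairpin are summed, which is why the hairpins of miR-200a and miR-429 are shown whole (RNA strand, 5′ to 3′, with both mature arms in capitals):
miR-200a hairpin: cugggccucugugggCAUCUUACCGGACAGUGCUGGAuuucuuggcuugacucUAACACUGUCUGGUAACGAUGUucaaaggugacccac
miR-429 hairpin: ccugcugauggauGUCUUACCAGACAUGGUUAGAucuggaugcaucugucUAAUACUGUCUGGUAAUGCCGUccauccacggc

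The 10 precursors lie at 5 places in the mouse genome (mm10), and no other counted precursor overlapped any of them. The files list them as mmu-mir-200b, mmu-mir-200a, mmu-mir-429, mmu-mir-200c, mmu-mir-141, mmu-mir-183, mmu-mir-96, mmu-mir-182, mmu-mir-203 and mmu-mir-205. miR-200b (chromosome 4, 156055681 to 156055750), miR-200a (156054896 to 156054985) and miR-429 (156053905 to 156053987) lie on the minus strand within 1846 bases. In GENCODE release M21 all 3 are in introns of the protein-coding gene Ttll10 on the same strand. They also lie in the noncoding transcript Gm13648, miR-200b and miR-200a in an intron and miR-429 in an exon. miR-200c (chromosome 6, 124718322 to 124718390) and miR-141 (124717914 to 124717985) are 336 bases apart on the minus strand, in an intron of the noncoding gene Gm15884. miR-141 also lies partly in an exon of Gm29008, a gene model still to be experimentally checked. miR-183 (chromosome 6, 30169668 to 30169737), miR-96 (30169446 to 30169551) and miR-182 (30165918 to 30165992) span 3820 bases of the minus strand and overlap no other gene in that annotation. miR-205 (chromosome 1, 193507463 to 193507530, minus strand) lies within an exon of 4631405K08Rik, a long noncoding RNA. miR-203 (chromosome 12, 112130880 to 112130955, plus strand) overlaps no other annotated gene.

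The HC library held 31198050 counts over all precursors and the NC library 43848576. Levels are given as CPM, counts divided by a library size, times 1e6, with the size scaled by the trimmed mean of M-values (TMM), a method that takes most precursors as unchanged. A count of 0 would allow up to 0.0918 CPM in HC and 0.0717 CPM in NC, below the level of every member. Together the members took 14838 counts in HC, or 0.0476% of precursor counts (Clopper-Pearson interval 0.0468 to 0.0483%), and 28059 in NC, or 0.0640% (0.0632 to 0.0647%). The labelled tissue was checked against its markers: all 6 muscle precursors searched (miR-1a-1, miR-1a-2, miR-133a-1, miR-133a-2, miR-133b and miR-206) were detected in both libraries. Their summed level was 136143 CPM in HC and 135986 in NC, with copies counted more than once, and it was set almost wholly by the copies of miR-133a (log2 fold -0.01). Within it, the log2 fold was 0.47 for miR-1a-1 (0.45 to 0.49) and -0.20 for miR-133b (-0.22 to -0.19), so the muscle markers did not share a direction. The 10 members were thus a small part of libraries in which muscle miRNAs were plentiful.

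All 10 members had a lower level in HC than in NC. Summed, they had 454 CPM in HC and 670.4 in NC, a ratio 1.48-fold lower in HC (1.45 to 1.51). Over the 10 members the log2 fold of HC over NC had a median of -0.62 and a range from -0.88 to -0.20, while its median over all 222 precursors compared was 0.00. The interval lay below 0 for the 9 members with a mean of 1 CPM or more, against 36.7% of the 335 precursors at that level, and for miR-96 it did not. In this and the later shares of precursors, copies with equal values, such as those of miR-467a, count separately. The RNA was bulk RNA, so fewer cells of a type and less RNA per cell cannot be told apart. Scaling moves all members alike: with plain totals every log2 fold rises by 0.13, which leaves all 10 below 0 but only 7 with an interval below 0. The exceptions were then miR-96, miR-200a and miR-203.

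**Figure D1:**
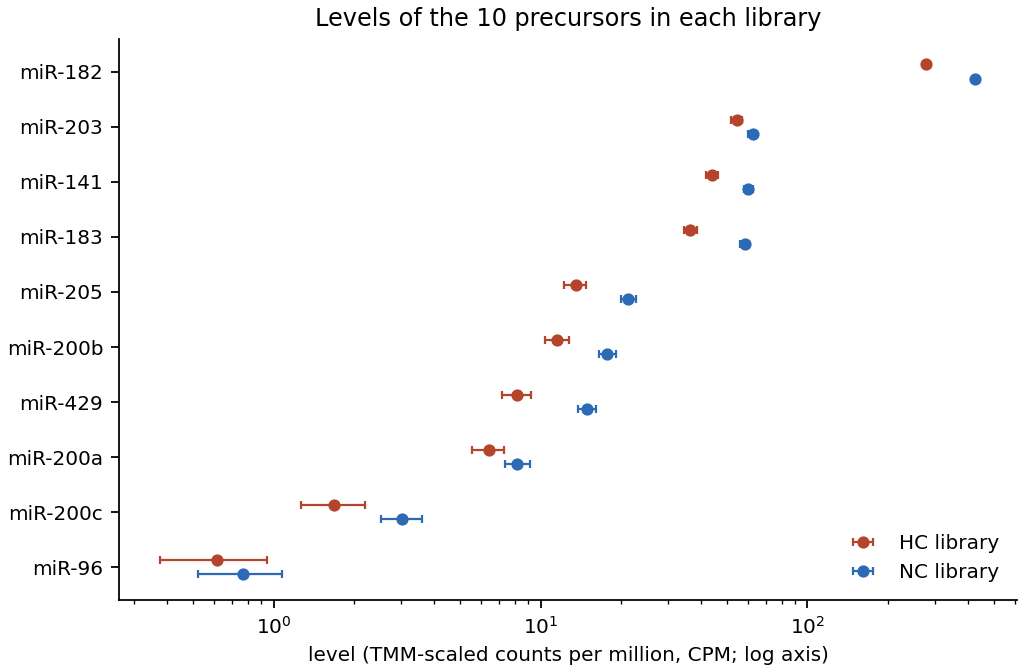
Level of each precursor in the HC and the NC library in CPM on a log axis, with points for the single library of each group and bars for the exact 95% Poisson interval of counting error. Every HC point lies to the left of its NC point, from miR-182 at 277.5 and 423.6 CPM down to miR-96 at 0.612 and 0.765 CPM.

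Precursors were compared when their mean over both libraries reached 10 CPM, and one counted as lower when it was at least 1.5-fold lower in HC with an interval that excluded equality. Of the 10 members, 7 were compared, since miR-200a, miR-200c and miR-96 lay below that level. By this rule 5 of the 7 were lower in HC (miR-182, miR-183, miR-205, miR-200b and miR-429) and none higher. Over all 222 compared precursors, 10 were lower (4.5%) and 6 higher (2.7%), so the members made up 5 of the 10. The other 5 came from 215 precursors that are no members, 2.33% of them. With plain totals the count of members was 1 of 7, miR-429, against 2.25% of all compared precursors, and with the authors' denominators 5 of 7 against 4.95%. Lower minima add the rarer members: at 1 CPM 6 of 9 members were lower against 6.27% of precursors, and with no filter 6 of 10 against 4.11%. Among precursors between 10 and 100 CPM alone, the share was 6.52% with 4 of 6 members. No member reached 2-fold, which 0.901% of compared precursors did. At any size, the interval lay below 0 for all 7 compared members, against 43.7% of compared precursors. That share stood at 59% with the authors' denominators and 21.2% with plain totals, where 6 of the 7 members kept an interval below 0. The members were named with earlier results of these data known, so these counts are a description.

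**Figure D2:**
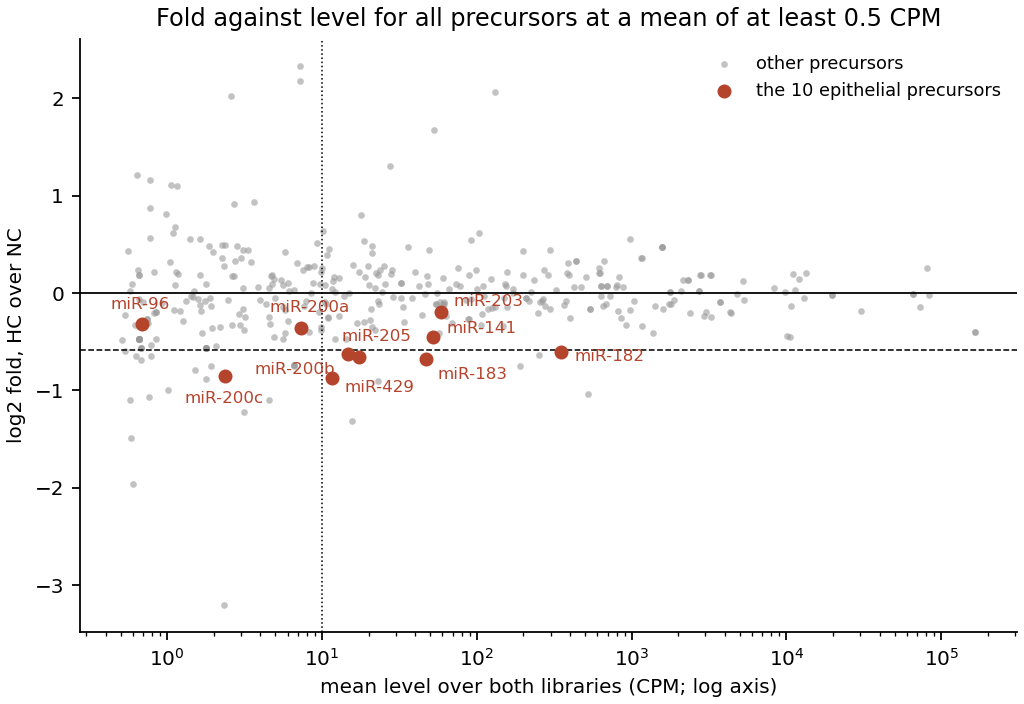
Log2 fold of HC over NC against the mean level in CPM on a log axis for all precursors whose mean was 0.5 CPM or more, 1 point per precursor, with lines at equality, at 1.5-fold lower and at 10 CPM. The 10 members, in red, all lie below the line of equality, and those with a mean of 10 CPM or more run from -0.88 for miR-429 to -0.20 for miR-203.

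In the miR-200 family, the summed level of the seed shared by miR-200b, miR-200c and miR-429 was the more reduced. miR-200b had 377 counts in HC and 744 in NC, or 11.5 CPM (10.4 to 12.8) against 17.8 (16.5 to 19.1). miR-429 had 266 and 625 counts, 8.14 CPM (7.19 to 9.18) against 14.9 (13.8 to 16.2). miR-200c was rare, with 55 and 127 counts, 1.68 CPM (1.27 to 2.19) against 3.03 (2.53 to 3.61). In each of these the intervals of the libraries did not overlap, HC being the lower. Their log2 folds were -0.62 for miR-200b (-0.81 to -0.44), -0.88 for miR-429 (-1.09 to -0.67) and -0.85 for miR-200c (-1.33 to -0.38). miR-429 had the lowest fold of the 10 members. Under TMM its reduction of 1.83-fold (1.59 to 2.13) was the only one whose whole interval lay beyond 1.5-fold. That depends on scaling: with plain totals its log2 interval (-0.95 to -0.53) included 1.5-fold. With the authors' denominators the intervals of miR-182, miR-183 and miR-205 also lay wholly beyond it. Summed over this seed, the level was 21.4 CPM in HC and 35.7 in NC, 1.67-fold lower in HC (1.53 to 1.83).

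The members with the other miR-200 seed differed less between the libraries. miR-141, the most abundant of the family, had 1433 counts in HC and 2517 in NC, or 43.8 CPM (41.6 to 46.2) against 60.1 (57.8 to 62.5). miR-200a had 209 and 343 counts, 6.39 CPM (5.56 to 7.32) against 8.19 (7.35 to 9.11), so that its intervals nearly touched. The log2 folds were -0.46 for miR-141 (-0.55 to -0.36) and -0.36 for miR-200a (-0.61 to -0.11). Summed over this seed, HC had 50.2 CPM and NC 68.3, a difference of 1.36-fold (1.28 to 1.45). The ratio of this seed to the other was 2.35 in HC and 1.91 in NC, a log2 difference of 0.30 (0.14 to 0.46), which does not depend on how the libraries are scaled. That ratio was computed after the member values had been seen. miR-141 held 1433 of the 1642 counts of its seed in HC, so seed and genomic place are largely mixed in that ratio. Within a cluster, the pair miR-200b to miR-200a also crosses the seeds, with a log2 difference of -0.27 (-0.58 to 0.05). For miR-200c to miR-141 it was -0.39 (-0.89 to 0.08). Both intervals held 0, while that of miR-200a to miR-429 did not. Counts of both arms are assigned here to the seed of the strand shown.

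The keratinocyte miRNAs differed from each other in size. miR-203 had 1776 counts in HC and 2611 in NC, or 54.3 CPM (51.8 to 56.9) against 62.4 (60.0 to 64.8), a log2 fold of -0.20 (-0.29 to -0.11). Its interval reached 0 with plain totals (-0.06, from -0.15 to 0.02), so its direction is not firm. miR-205 had 442 and 892 counts, 13.5 CPM (12.3 to 14.9) against 21.3 (19.9 to 22.8), a log2 fold of -0.66 (-0.82 to -0.49). There were 4.02 counts of miR-203 for each count of miR-205 in HC and 2.93 in NC. The log2 difference of these ratios was 0.46 (0.27 to 0.65), a comparison chosen after the values were seen. Against the other 9 members summed, miR-203 was also the less reduced, by 0.41 on the log2 scale (0.31 to 0.50). The miRNA of differentiating keratinocytes and that of basal cells were not lower by the same factor in these libraries.

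**Figure D3:**
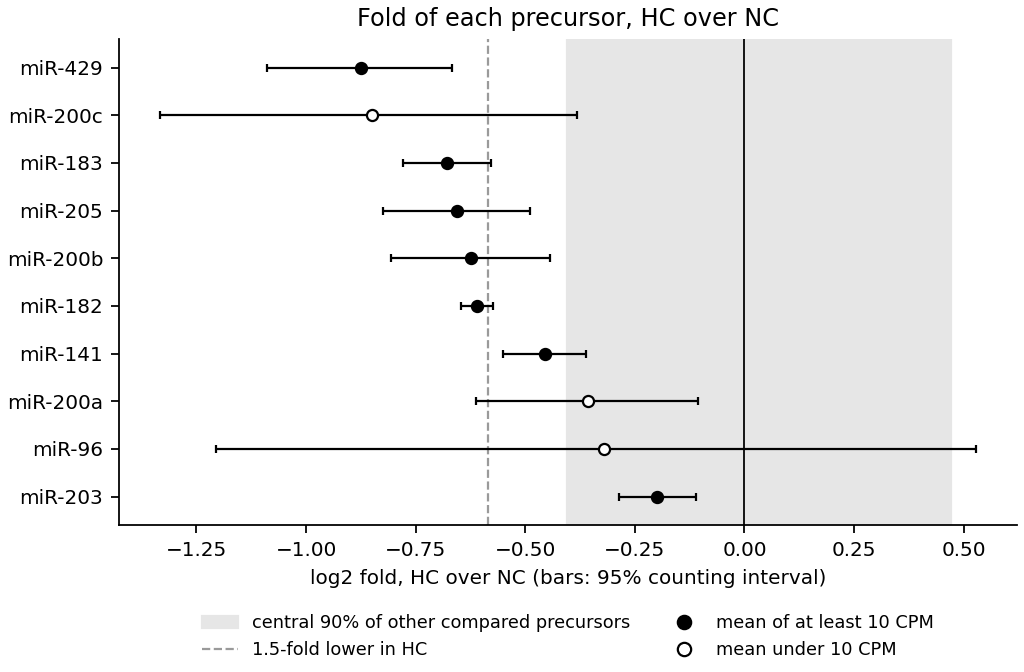
Log2 fold of HC over NC for each precursor with its 95% counting interval, filled points for precursors compared (mean of 10 CPM or more) and open points for the rest, over a grey band for the central 90% of the other 215 compared precursors (-0.41 to 0.47). Of the filled points, miR-203 is the only one inside the band, and among the open points miR-200a and miR-96 lie inside it.

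The miR-183, miR-96 and miR-182 cluster held most of the counts. miR-182 alone had 9071 counts in HC and 17731 in NC, 61.1% and 63.2% of all member counts. Its level was 277.5 CPM (271.9 to 283.3) in HC and 423.6 (417.4 to 429.9) in NC, and it ranked 97th of all precursors in HC and 84th in NC. The log2 fold of miR-182 was -0.61 (-0.65 to -0.57), or 1.53-fold lower in HC (1.49 to 1.57). miR-183 had 1189 and 2437 counts, 36.4 CPM (34.3 to 38.5) against 58.2 (55.9 to 60.6), a log2 fold of -0.68 (-0.78 to -0.58). The intervals of both miRNAs were far apart between the libraries. miR-96 had 20 and 32 counts, 0.612 CPM (0.374 to 0.945) against 0.765 (0.523 to 1.08), and its log2 fold of -0.32 had an interval from -1.20 to 0.53. A difference in miR-96 was not detectable at this depth. Because miR-182 outweighs the rest, the sum over the members mostly follows it: without this cluster the remaining 7 members were 1.35-fold lower in HC (1.30 to 1.40).

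The order of the levels was miR-182, miR-203, miR-141, miR-183, miR-205, miR-200b, miR-429, miR-200a, miR-200c and miR-96 in both libraries. In HC the ratio of each member's count to that of the next had an exact interval above 1 throughout, closest for miR-205 to miR-200b at 1.17 (1.02 to 1.35) and miR-429 to miR-200a at 1.27 (1.06 to 1.53). In NC the order was not resolved for miR-203 to miR-141, at 1.04 (0.982 to 1.10), or for miR-141 to miR-183, at 1.03 (0.976 to 1.09). The other ratios in NC had intervals above 1. With levels per 100 bases of hairpin the order in HC was the same, and in NC 3 members changed place. There miR-141 came first of the 3 at 83.5 CPM per 100 bases, before miR-183 at 83.2 and miR-203 at 82.1. A sequenced miRNA read covers the mature strand and not the hairpin, so levels are otherwise given without a length correction. Reads per miRNA also depend on how well each strand is ligated, and that was not measured here.

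Shares within a cluster do not depend on library scaling, and they show how far neighbouring hairpins went together. In the miR-183 cluster, miR-182 took 88.2% of counts in HC (87.6 to 88.9%) and 87.8% in NC (87.3 to 88.2%). miR-183 took 11.6% (10.95 to 12.2%) and 12.1% (11.6 to 12.5%), and miR-96 took 0.195% and 0.158%. These shares had overlapping intervals in both libraries while its summed level differed by a log2 fold of -0.62 (-0.65 to -0.58). miR-141 took 96.3% of the pair with miR-200c in HC (95.2 to 97.2%) and 95.2% in NC (94.3 to 95.98%). The miR-200b cluster had a sum of 26.1 CPM in HC and 40.9 in NC. There the shares of miR-200a and miR-429 differed by more, though the intervals of every share again overlapped between the libraries. miR-200b held 44.2% in HC (40.9 to 47.7%) and 43.5% in NC (41.1 to 45.8%). miR-200a held 24.5% in HC (21.7 to 27.6%) and 20.0% in NC (18.2 to 22.01%), whereas miR-429 held 31.2% in HC (28.1 to 34.5%) and 36.5% in NC (34.2 to 38.8%).

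Of the 7 pairs of members within a cluster, adjacent or not, 1 had a ratio whose interval excluded equality between the libraries. For that pair, miR-200a to miR-429, the ratio was 0.786 in HC and 0.549 in NC, a log2 difference of 0.52 (0.18 to 0.85, not adjusted for the 7 pairs). These are the hairpins printed above, which lie 908 bases apart. For miR-183 to miR-182 the log2 difference was -0.07 (-0.18 to 0.04). The intervals of the other 5 pairs also held 0, and those with miR-96 were as wide as -1.21 to 0.53.

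**Figure D4:**
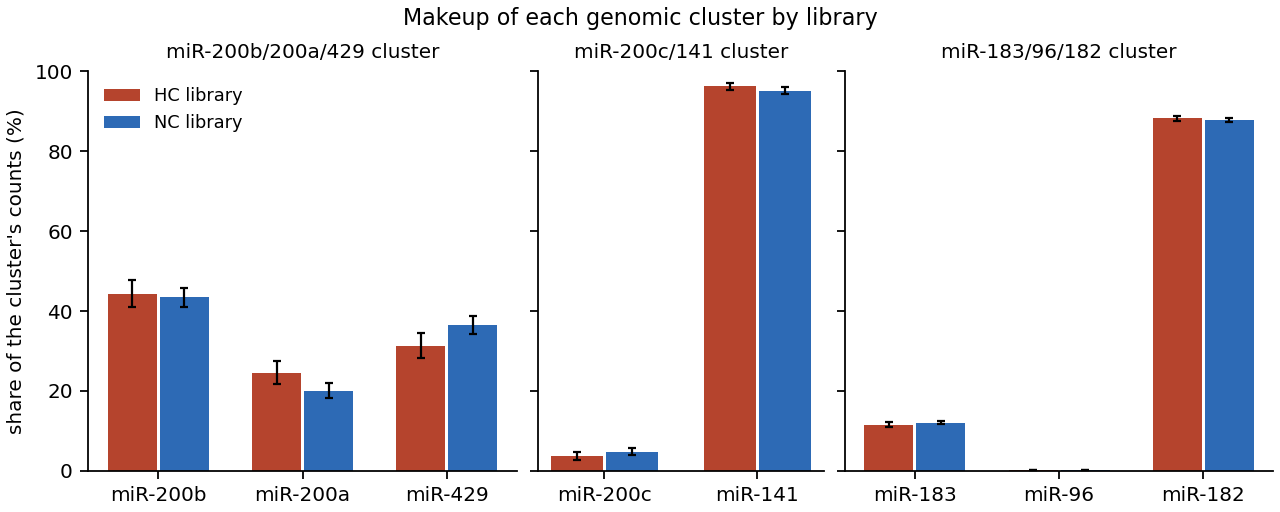
Share of each precursor in the summed counts of its genomic cluster, in percent, as bars for the HC and the NC library with exact 95% Clopper-Pearson intervals. miR-182 takes 88.2% and 87.8% of its cluster and miR-141 96.3% and 95.2% of its pair. In the miR-200b cluster miR-429 is lower and miR-200a higher in HC, each with intervals that overlap between the libraries.

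The starts of presumed host transcripts are described where the RefSeq table holds them. The windows upstream of the miR-200b and miR-183 clusters are printed. That of miR-205 is only described, although its level was lower in HC too. RefSeq gives start sites on the minus strand for Gm13648, 4052 bases upstream of miR-200b, and for Mirc35hg, 4388 bases upstream of miR-183. It also gives one for Mir205hg, the gene that GENCODE calls 4631405K08Rik, 2680 bases upstream of miR-205. The windows run from 250 bases before the start to 50 after it (GRCm38.p6, minus strand, 5′ to 3′). Capitals mark the E-box CACCTG, the type of element that Zeb proteins bind, searched on both strands as CACCTG and its reverse complement CAGGTG, which do not overlap each other here:
Gm13648 (chr4:156059753-156060052): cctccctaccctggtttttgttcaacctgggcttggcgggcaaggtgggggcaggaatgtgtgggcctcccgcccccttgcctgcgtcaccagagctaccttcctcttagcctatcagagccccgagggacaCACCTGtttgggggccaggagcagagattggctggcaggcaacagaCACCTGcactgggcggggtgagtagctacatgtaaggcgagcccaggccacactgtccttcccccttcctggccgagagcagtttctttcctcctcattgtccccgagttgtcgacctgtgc
Mirc35hg (chr6:30174076-30174375): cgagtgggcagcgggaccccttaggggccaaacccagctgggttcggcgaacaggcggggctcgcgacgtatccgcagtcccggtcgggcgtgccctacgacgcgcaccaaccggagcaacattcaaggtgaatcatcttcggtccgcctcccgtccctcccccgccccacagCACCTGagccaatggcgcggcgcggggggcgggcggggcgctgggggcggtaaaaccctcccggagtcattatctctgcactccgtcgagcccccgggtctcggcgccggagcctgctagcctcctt

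The Gm13648 window held the element 2 times, its first base 118 and 72 bases before the start. The Mirc35hg window held it once, 77 bases before the start, and the Mir205hg window once, 193 bases before the start. Among 32817 promoter windows of the same length in the RefSeq table, 20.2% held at least 1 such element and 2.88% held 2 or more. A match is a description of the letters in the window. No binding was measured.

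Other miRNAs known from epithelium or skin were compared as a list of 14 precursors. All 14 were detected in both libraries, and 6 reached 10 CPM. Of these 6, 4 had an interval below 0, with the copies miR-194-1 and miR-194-2 counted separately. None had an interval above 0 or reached 1.5-fold, and the median log2 fold of the 6 was -0.21. Over all 222 compared precursors, 43.7% had an interval below 0, 4.5% were at least 1.5-fold lower and the median was 0.00. miR-192, of gut and kidney epithelium, had 783.7 CPM in HC and 933.8 in NC, a log2 fold of -0.25. miR-204, of pigment epithelium among other tissues, had 110.8 and 124.2 CPM, at -0.16. miR-708 had 31.9 and 33.1 CPM and miR-34c, abundant in ciliated epithelium, 22.5 and 24.4 CPM, both with intervals that held 0. The lowest log2 folds among the 6, named after their values were seen, were those of the copies miR-194-2 at -0.38 (-0.52 to -0.23) and miR-194-1 at -0.35 (-0.50 to -0.20), which, like miR-192, are known from gut and kidney epithelium. The skin melanocyte miRNA miR-211 had 61 and 81 counts, a log2 fold of -0.05 (-0.56 to 0.44).

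Markers of other cells that the tissue could hold went in several directions. The neuronal miR-9 was lower in HC, with 162 counts against 347 for miR-9-1, whose reads are shared with its copies miR-9-2 and miR-9-3, at a log2 fold of -0.74 (-1.02 to -0.47). miR-124-1, the most neuron-specific, had 22 and 34 counts, with an interval from -1.11 to 0.54. The 6 neuronal precursors, all of them copies of miR-9 or miR-124 and none at 0, summed to 16.9 CPM in HC and 27.4 in NC, with copies counted more than once. The lymphocyte miRNA miR-150 was lower, at 141.6 against 237.6 CPM and a log2 fold of -0.75 (-0.80 to -0.70). miR-223 of neutrophils was higher at 0.44, and miR-142a of all leukocytes was 0.01, so that the 3 leukocyte precursors summed to 2266 CPM in HC and 2259 in NC. The erythroid miR-144 and miR-451a summed to 608.8 and 467.9 CPM, the endothelial miR-126a had a log2 fold of 0.03 and the smooth muscle miR-143 one of -0.14. The part of these cell types in the lower levels of the members was not tested. Scaled to the summed muscle markers, mostly miR-133a, instead of TMM, the member median was -0.62 and 5 members were at least 1.5-fold lower. This scaling shifted every log2 fold by only -0.0017 from TMM, so it is no separate check.

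The precursors most like the summed members were named by the nearest log2 fold to their value of -0.56, among compared precursors that are no members. With 2 libraries this likeness is a single difference per precursor. They were miR-381 of the imprinted Dlk1-Dio3 region at -0.64, miR-190a at -0.48 and miR-7068 at -0.47. Of the 215 such precursors, 5 had a log2 fold at or below that of the summed members.

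**Figure D5:**
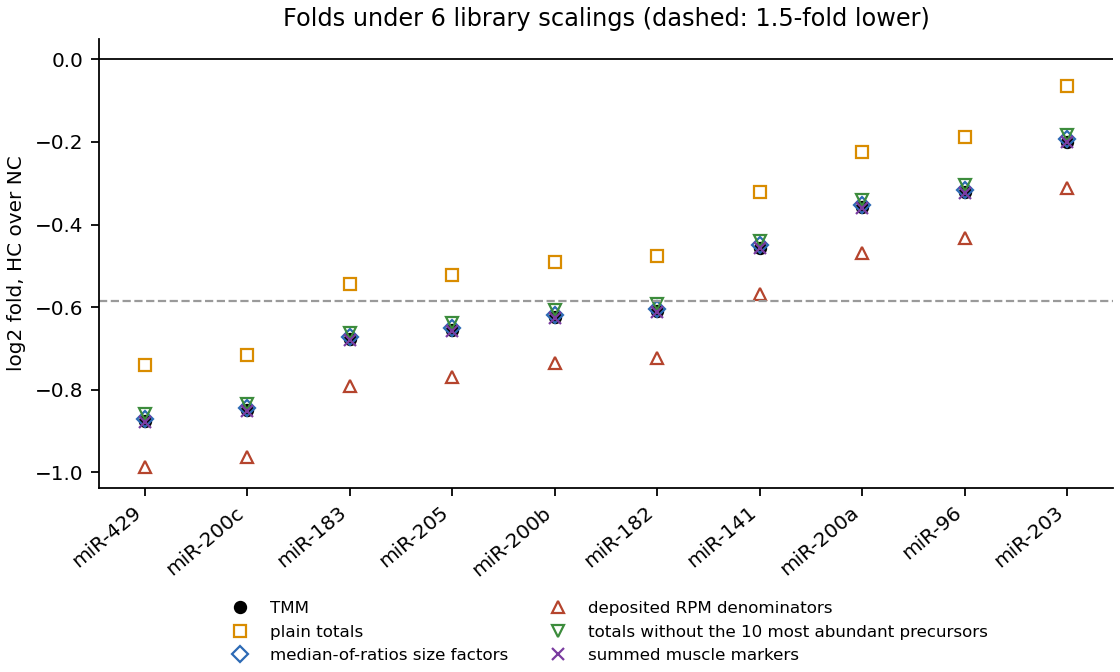
Log2 fold of HC over NC for each precursor under 6 ways of scaling the libraries, 1 symbol per scaling, with a solid line at equality and a dashed line at 1.5-fold lower in HC. Every value lies below equality, plain totals are the highest (miR-203 at -0.06) and the authors' denominators the lowest (miR-429 at -0.99).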

How the data were processed

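Libraries were made from Trizol and mirVana extracts with the TruSeq small RNA kit of Illumina, per the labels' protocols. The authors deposited whole-number read counts per precursor, both arms together. CASAVA 1.8.2, TopHat2 2.0.10, HTSeq 0.5.4 and mm10 are named in the submitters' processing notes; trimming, mismatches and treatment of reads with several alignments are not stated there. A second deposited column, called RPM in the file headers, is treated as a signal: it is a constant multiple of the count whose sum over precursors (1146026 in HC) exceeds 1e6, and it served only as an alternative scaling. The 5 summary rows stayed out of all totals. The summary row of counts outside precursors made up 55.9% in HC and 44.1% in NC of that row and the precursor counts together. The other summary rows are not part of that share.

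Groups follow the phenotype labels. TMM factors were computed over all 1187 precursors with edgeR 4.0.16 in R 4.3.3, without a test. Intervals for levels are exact Poisson, for shares Clopper-Pearson, for folds exact conditional binomial without pseudocount, and for ratios within a cluster the exact conditional odds ratio (scipy 1.17.1). Precursors were compared when their mean reached 10 CPM, and called at a fold of 1.5 or more. No fold was formed where both libraries had 3 counts or fewer. On simulated Poisson counts for this comparison (1187 precursors), all 7 compared precursors lowered 2-fold were recovered, as were all 15 lowered 4-fold. None of 195 unchanged ones was called. The interval held the simulated fold for 85.7% of the 7 lowered 2-fold. These counts held no spread between animals, and the library scaling was taken as known. Reductions under 2-fold, where all members lie, were not simulated, so calls near 1.5-fold were not checked. Sequences are from RefSeq (GRCm38.p6) and gene context from GENCODE mouse release M21. Named precursors are the 10 members, up to 4 of the most abundant in the list of other epithelial and skin-related miRNAs, cell type markers, and the 3 nearest in fold; miR-194-1 and miR-194-2 were named outside this rule after their values were seen. miR-142 is listed as miR-142a in the files. The members and lists were chosen with earlier results of these data known. Alternatives were 5 other scalings, lower filters, other fold limits and leaving out each cluster.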

Additional observations from a re-analysis of the deposited data

Results flagged for a closer look

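Counts outside all precursors made up 55.9% of these and the precursor counts together in HC, above the 44.1% in the control library. They entered no comparison here. Their part in the lower levels of the members was not tested.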

How the results depend on the processing

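All 10 members kept a log2 fold below 0 under each of the 6 scalings run. Not all of these are separate checks. Median-of-ratios size factors, totals without the 10 most abundant precursors and muscle markers shifted log2 folds by 0.005, 0.017 and -0.002. Those scalings nearly repeat TMM. The summed log2 fold of -0.56 was -0.43 with plain totals and -0.67 with the authors' denominators, because these shift every precursor by 0.13 and -0.11. It was -0.43 without the miR-183, miR-96 and miR-182 cluster and -0.61 without miR-203. The number of members at least 1.5-fold lower was 5; it was 1 with plain totals, 0 at a limit of 2-fold (background 0.901% of compared precursors), 6 at a lower minimum of 1 CPM or no filter, 7 at any size, and 5 under the other scalings. Under TMM the intervals of miR-182, miR-183, miR-205 and miR-200b include 1.5-fold, so their side of that limit is within counting error. With the authors' denominators those of miR-182, miR-183 and miR-205 lay wholly beyond it, and with plain totals that of miR-429 included it. Of the single-member, level and share values, those that moved did so with scaling, and the order of levels in NC moved with length. Scaling to muscle markers was added after seeing the data. No paired analysis was possible because each group holds 1 library and no test was run, and no replicate could be left out. Depth limits miR-96 most, with 20 and 32 counts.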
